A study of Mus musculus with 24 samples.

Results

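The genes described here are the cytochrome P450 genes of families 1 to 4, taken as every transcript cluster whose array symbol was Cyp, a digit from 1 to 4, a letter and a number. They numbered 72 of the 22206 transcript clusters tested, each with its own symbol: 3 of family 1, 46 of family 2, 7 of family 3 and 16 of family 4. Cytochromes P450 are heme proteins of the endoplasmic reticulum that insert oxygen into drugs, steroids, bile acids and fatty acids, with electrons passed on by a reductase and by cytochrome b5. Families 1 to 3 do most of the drug oxidation of the liver and family 4 mainly oxidises fatty acids and eicosanoids. Most liver members are made in hepatocytes, many near the central vein, and in mice several are set by sex through the pattern of growth hormone release.

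RNA came from liver cells of C57BL/6 mice, male per the study's methods, enriched for macrophages on a density gradient and selected with beads against F4/80, a macrophage surface protein. It was measured on 24 Clariom S arrays in 8 groups of 3. The groups were intact, SE (spleen removed, liver whole), LR (70% liver resection with the spleen kept, sampled after 24 h, 3 days or 7 days) and LR+SE (resection with the same sampling times in mice whose spleen had been removed 7 days before). The group labelled intact had neither operation per its label, while the methods describe sham-operated controls, so this is not settled. The methods describe cells of several mice pooled per preparation, and nothing shows that the 3 arrays of a group came from separate pools, so the p-values speak only to variation among preparations. In pooled RNA, fewer cells of a type and less RNA per cell cannot be told apart.

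Values are the deposited log2 signals, and a gene was placed above background where its mean over all 24 arrays exceeded 3.69, the 95th percentile of odorant receptor clusters. Between 54.78% and 59.63% of clusters lay above that level on each array. Defining Kupffer cell markers were present on every array, where 12 macrophage markers averaged 14.65 to 17.41. Hepatocyte transcripts were present too: 22 hepatocyte markers averaged 6.60 to 7.98 on the SE arrays, 8.73 to 10.75 on the intact arrays and 11.53 to 14.24 on the LR+SE arrays at 3 days. Replicate 2 of LR+SE at 3 days stood apart, with the highest hepatocyte mean and the lowest macrophage mean. The mean of 3 genes of the Y chromosome was 2.60 to 3.08 on 5 arrays, against 6.75 to 8.78 on the other 19. The 5 arrays were all 3 intact arrays, replicate 1 of LR+SE at 3 days and replicate 2 of LR at 7 days, which goes against the description of the animals as male.

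Of the 72 genes, 35 had a mean above background: 1 of family 1, 25 of family 2, 3 of family 3 and 6 of family 4. By array, 19 genes exceeded the level on all 24 arrays and 11 on none, and 16 of the 37 genes at background by their mean had a group mean above it. By subfamily, all 8 genes of 2d lay above background, as did 3 of 4 of 2a, 3 of 5 of 2b, 6 of 14 of 2c, 2 of 7 of 2j, 3 of 7 of 3a, 1 of 5 of 4a and 4 of 9 of 4f. The genes sit in clusters of related copies in the RefSeq annotation. All 14 of 2c lie on chromosome 19, all 8 of 2d on chromosome 15 and 15 genes of several subfamilies, 2a and 2b among them, on chromosome 7. Near-identical copies can share probe signal, so values within a subfamily are not fully separate. Across the 8 groups, 26 of 72 genes differed (limma moderated F test, adjusted p under 0.05), where the same test called 15.4% of all clusters. The split at background uses the mean over all arrays, which a high value in 1 group raises (Cyp2a4 and Cyp2b9 pass it with 2 of 8 group means above the level), so calls are not compared between its sides. The count was 20 to 26 when any 1 array was left out.

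**Figure D1:**
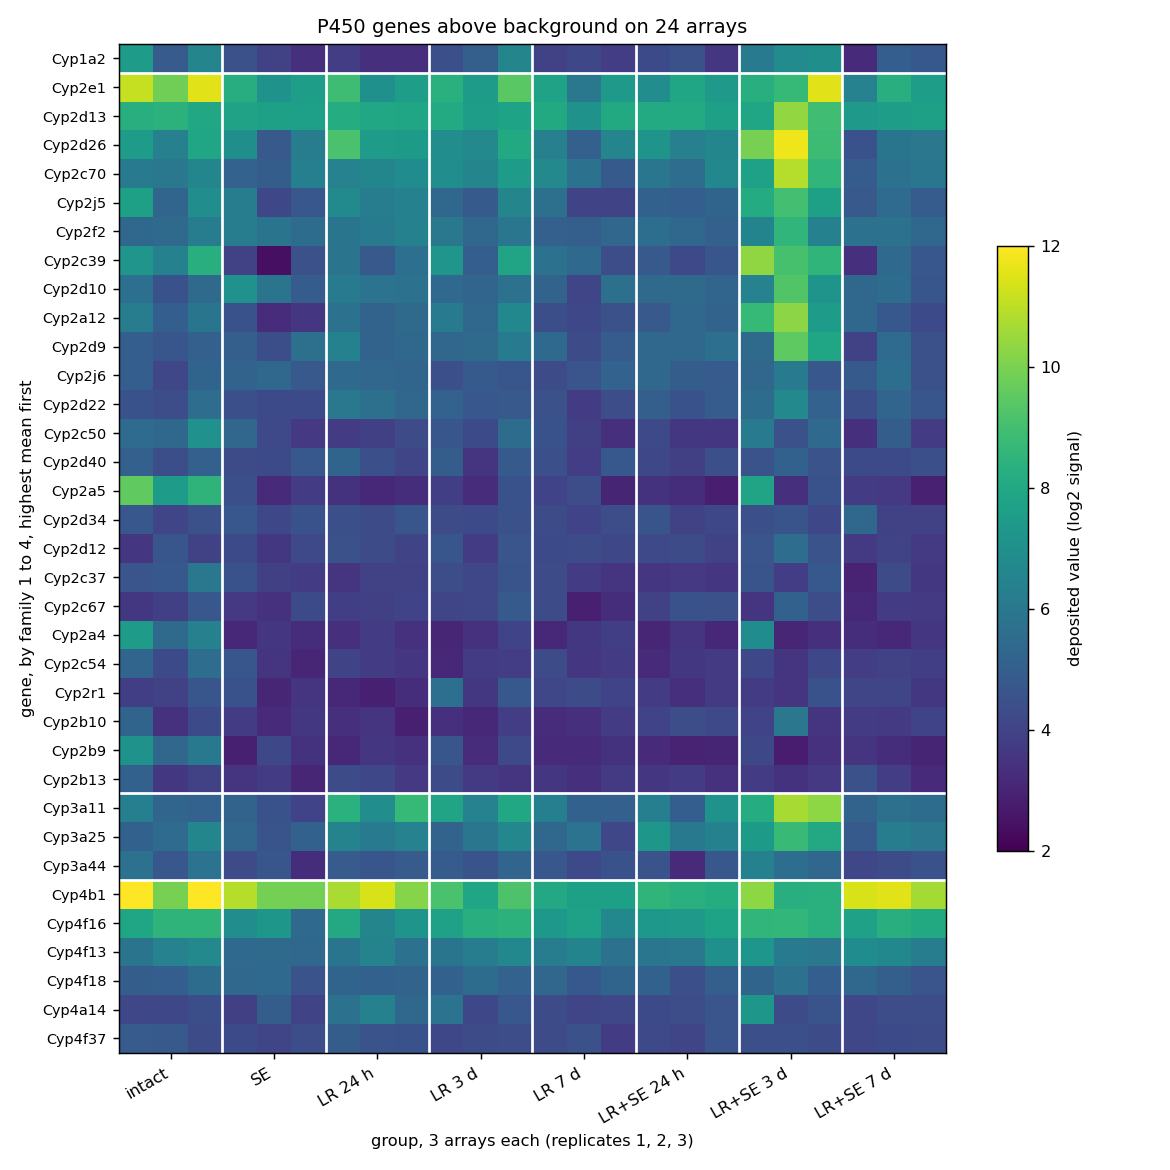
Deposited log2 signal of the 35 P450 genes above background (each line 1 gene, by family from 1 to 4 and then by mean) on 24 arrays (columns, 3 per group). The LR+SE 3 days columns are bright in families 2 and 3, and Cyp2a5 and Cyp2a4 are bright in the 3 intact columns and in the first LR+SE 3 days column.

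In family 1, Cyp1a2, which oxidises caffeine and aromatic amines in hepatocytes near the central vein, was the only gene above background. It read 7.50, 4.87 and 6.56 on the intact arrays, 4.49, 3.92 and 3.40 in SE, and 3.83, 3.37 and 3.37 in LR at 24 h. In LR+SE at 3 days it read 6.09, 6.83 and 6.97. The LR 24 h arrays thus lay below all intact arrays, and the LR+SE 3 days arrays above all SE arrays. Cyp1a1, the best known target of the aryl hydrocarbon receptor, stayed between 2.58 and 3.54 on all 24 arrays, and Cyp1b1, which oxidises estradiol and aromatic hydrocarbons outside the liver, between 2.51 and 3.41. Neither exceeded background on any array.

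Several genes of families 2 to 4 lay near background throughout. Cyp2s1 lay between 2.77 and 4.04, Cyp2u1, a fatty acid hydroxylase, between 2.83 and 4.08, and Cyp3a13 between 2.65 and 4.05. Cyp4a10, a fatty acid hydroxylase controlled by PPARα, exceeded background on no array, at 2.56 to 3.56, whereas its relative Cyp4a14 read 5.73, 6.41 and 5.32 in LR at 24 h (1.59 ± 0.54 against intact, adjusted p = 0.0796). Cyp2r1, a vitamin D 25-hydroxylase, exceeded it on 15 arrays and ranged from 2.86 to 5.65. Cyp4f18, which hydroxylates leukotriene B4 in myeloid cells, exceeded it on all 24 arrays, from 4.45 to 5.74. Its group means spanned only 0.44 on the log2 scale, against a median SD within groups of 0.34, and it was called in none of the comparisons. Cyp2f2, known for the oxidation of naphthalene, also exceeded background on all arrays, with group means from 5.13 ± 0.16 in LR at 7 days to 7.16 ± 1.24 in LR+SE at 3 days (mean ± SD, n = 3).

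Cyp2a5, Cyp2a4, Cyp2b9 and Cyp3a16 were high on all 3 intact arrays and near background in most others. Cyp2a5 is the coumarin 7-hydroxylase, Cyp2a4 a testosterone 15α-hydroxylase, Cyp2b9 a female-predominant gene of the phenobarbital-inducible subfamily and Cyp3a16 a gene of fetal and female liver. Their promoters are shown because Cyp2a4 and Cyp2a5 moved together and are copies of one another, while Cyp2b9 and Cyp3a16 shared the high intact values. The likeness of the Cyp2b9 and Cyp3a16 promoters to the others was not measured. Each runs 5′ to 3′ from 250 bases before to 50 after the start listed for the promoter, from RefSeq (GRCm38.p6): Cyp2a4 at chr7:26306942-26307241 and Cyp2a5 at chr7:26835089-26835388 and Cyp2b9 at chr7:26173159-26173458, all on the plus strand, and Cyp3a16 at chr5:145469674-145469973 on the minus strand. For Cyp2b9 and Cyp3a16 that start differs from the annotated start of the gene. Capitals mark the letters TATAAA, the core of a TATA box, and GTTAAT, part of the HNF1 recognition sequence, read on both strands.
Cyp2a4: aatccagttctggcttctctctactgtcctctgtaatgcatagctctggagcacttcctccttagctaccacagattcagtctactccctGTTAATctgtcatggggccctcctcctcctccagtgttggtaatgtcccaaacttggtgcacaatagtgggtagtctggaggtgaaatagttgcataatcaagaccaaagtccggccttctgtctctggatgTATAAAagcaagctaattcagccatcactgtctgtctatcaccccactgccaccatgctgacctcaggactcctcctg
Cyp2a5: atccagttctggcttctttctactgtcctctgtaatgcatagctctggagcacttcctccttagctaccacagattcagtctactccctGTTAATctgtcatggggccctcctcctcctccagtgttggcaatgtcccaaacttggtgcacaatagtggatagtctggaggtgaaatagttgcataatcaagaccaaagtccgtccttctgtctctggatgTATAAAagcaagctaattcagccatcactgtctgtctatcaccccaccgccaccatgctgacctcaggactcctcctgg
Cyp2b9: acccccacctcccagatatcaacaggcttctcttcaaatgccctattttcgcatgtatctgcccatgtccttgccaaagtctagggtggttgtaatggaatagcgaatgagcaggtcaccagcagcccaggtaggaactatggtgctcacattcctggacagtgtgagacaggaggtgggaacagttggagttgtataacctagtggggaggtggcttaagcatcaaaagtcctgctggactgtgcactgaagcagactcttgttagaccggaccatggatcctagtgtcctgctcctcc
Cyp3a16: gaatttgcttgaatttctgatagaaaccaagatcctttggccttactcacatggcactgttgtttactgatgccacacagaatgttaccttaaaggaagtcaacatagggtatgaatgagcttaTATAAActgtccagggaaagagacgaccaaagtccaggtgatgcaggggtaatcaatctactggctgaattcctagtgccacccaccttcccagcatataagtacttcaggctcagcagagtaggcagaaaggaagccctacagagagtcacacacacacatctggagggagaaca

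Cyp2a4 and Cyp2a5 matched at 294 of 299 aligned bases (98.3%), with the 2 windows offset by 1 base. Both carried TATAAA just before the start and GTTAAT further upstream. Cyp3a16 carried TATAAA at position -126 from the start and Cyp2b9 neither motif. Promoters were listed for 59 of the 72 genes (66 windows), of which 37.9% held TATAAA and 13.6% GTTAAT, against 13.6% and 7.1% of all 32851 windows. A further 2 motifs, the STAT palindrome TTCNNNGAA and the dioxin response core GCGTG, were in 6.06% and 19.7% of the P450 windows and in 8.3% and 32.4% of all windows. These are matches of letters only, and neither of those 2 was in the 4 windows shown.

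Cyp2a5 read 9.57, 7.50 and 8.52 on the intact arrays. It read 4.45, 3.23 and 3.76 in SE and 3.47, 3.16 and 3.30 in LR at 24 h. In LR+SE at 3 days it read 7.83, 3.36 and 4.53, so only replicate 1, an array without Y-linked signal, reached the intact range. Over the 19 arrays with Y-linked signal, Cyp2a5 ranged from 2.83 through a median of 3.47 to 4.53. On replicate 2 of LR at 7 days, which also lacked that signal, it read 4.37, within this range. Cyp2a5 is therefore high on 4 of the 5 arrays without Y-linked signal and on none of the 19 with it.

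Cyp2a4 repeated this, with 7.48, 5.46 and 6.35 on the intact arrays and 6.88 on replicate 1 of LR+SE at 3 days, against 3.06 to 3.99 on the 19 arrays with Y-linked signal and 3.61 on replicate 2 of LR at 7 days. Cyp3a16 read 4.68, 5.15 and 5.46 on the intact arrays and 4.42 on that LR+SE array, against 2.56 to 3.52 on the 19 and 3.27 on the LR array. Cyp2b9 read 7.09, 5.29 and 6.05 on the intact arrays. There the LR+SE array, at 4.16, lay inside the 2.78 to 4.67 of the 19 arrays, so Cyp2b9 set only the intact group apart. The same LR+SE array held the highest Cyp2c38 (6.03) and Cyp4a14 (7.29) of all 24, and the lowest Cyp2d9 of its group (5.47, beside 9.50 and 7.88). Cyp2d9 is a male-predominant testosterone 16α-hydroxylase. It read 4.97, 4.66 and 5.08 on the intact arrays and 4.34 on replicate 2 of LR at 7 days, the lowest of its group. These values and the 5.47 lay within the 3.95 to 9.50 of the 19 arrays with Y-linked signal. The mean of all 8 genes of 2d was also lowest on that LR+SE array (6.12, beside 7.86 and 6.41). Cyp4a12b, the other gene listed as male-predominant, had group means from 3.34 in LR+SE at 24 h to 3.70 in intact. The other 4 genes listed as female-predominant in mouse liver did not all read high on that LR+SE array. Cyp2c40, Cyp2c69 and Cyp2b13 read 3.30, 3.59 and 3.74 on it, within the 2.24 to 4.0, 2.53 to 3.78 and 3.08 to 4.48 of the 19 arrays. On the intact arrays Cyp2c40 read 3.52, 3.42 and 4.43, Cyp2c69 3.26, 4.19 and 5.18 and Cyp2b13 5.10, 3.62 and 3.96. Each thus had intact values both within and above the range of the 19. Cyp3a44 read 6.39 on the LR+SE array, above the 3.21 to 5.61 of the 19, and 5.77, 4.73 and 5.79 on the intact arrays. Cyp2c38, Cyp2d9, Cyp4a12b, Cyp2c69 and Cyp2b13 were named after their values were seen.

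**Figure D2:**
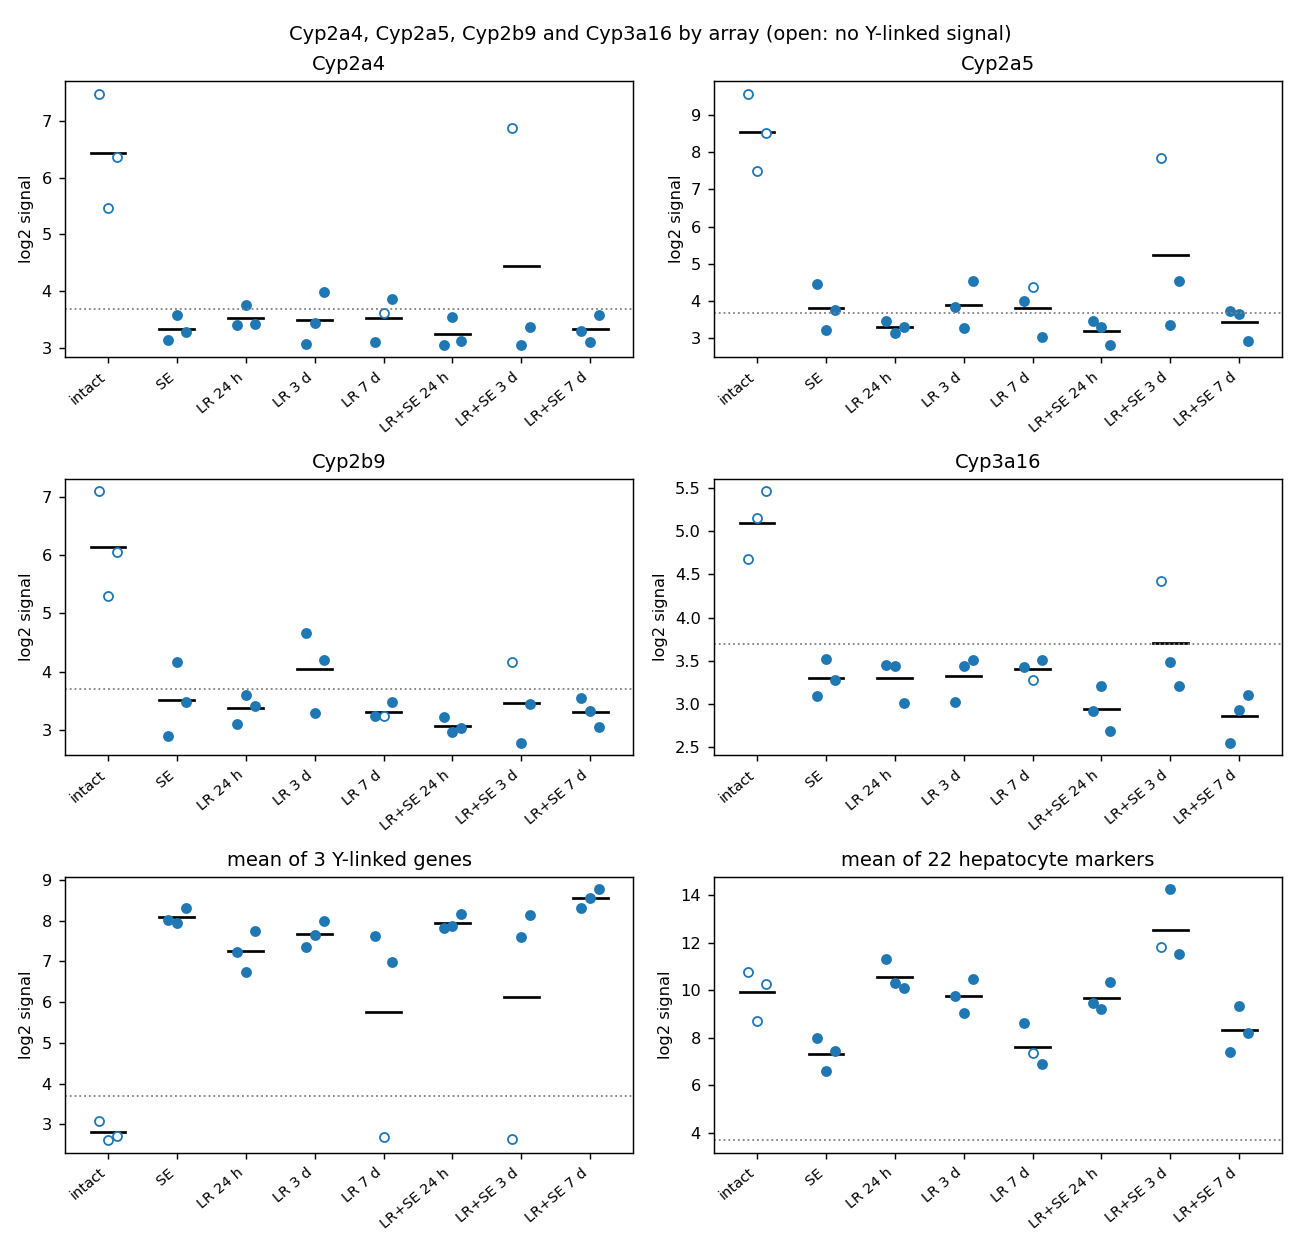
Log2 signal by group of Cyp2a4, Cyp2a5, Cyp2b9 and Cyp3a16, with the means of 3 Y-linked genes and of 22 hepatocyte markers (points: arrays, open where the array lacked Y-linked signal; bars: group means; dotted line: background, 3.69). The intact arrays are open and high for all 4 genes, and the open LR+SE 3 days array is high for Cyp2a4, Cyp2a5 and Cyp3a16.

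Splenectomy alone was compared with intact. The intact arrays lacked Y-linked signal and the SE arrays had it, so in this contrast that difference and splenectomy cannot be told apart. Of the 72 genes 6 were lower and 1 was higher, where 0.369% of all clusters were called lower and 0.185% higher. Cyp2a5 fell by 4.72 ± 0.74 (± standard error, n = 3 per group, adjusted p = 0.00438), Cyp2c39 by 3.69 ± 0.70, Cyp2a4 by 3.09 ± 0.65, Cyp2b9 by 2.63 ± 0.41, Cyp3a16 by 1.80 ± 0.27 and Cyp4f16 by 1.78 ± 0.41 (adjusted p = 0.0499). Cyp2c39, a retinoic acid hydroxylase, read 7.23, 6.38 and 8.31 in intact against 3.95, 2.43 and 4.49 in SE. The gene that rose, Cyp2c65, did so by 1.19 ± 0.24, from 2.71, 2.66 and 3.45 to 4.29, 4.02 and 4.09, and SE was its only group with a mean above background. A group at or under background on all 3 arrays gives only a bound, set at the background level. Cyp2a4 and Cyp3a16 were so in SE and fell by at least 2.73 and 1.40, and Cyp2c65 was so in intact and rose by at least 0.44. The hepatocyte markers were lower in SE as well, 6 of 22 called and a median of -2.64, while the median of the 72 genes was -0.32 and that of all clusters 0.01. Cyp2e1, which oxidises ethanol and acetaminophen, differed by -3.19 ± 0.74 without passing the threshold (adjusted p = 0.0547). The calls of Cyp2a5, Cyp2b9 and Cyp3a16 held without any 1 array. Cyp2a4 was lost without any array but intact replicate 2, Cyp4f16 without any but SE replicate 2, Cyp2c65 without any but intact replicate 3, and Cyp2c39 without intact replicate 1 or 3 or SE replicate 2. The count of calls was 4 rather than 7 without intact replicate 1, intact replicate 3, SE replicate 2 or SE replicate 3, and 0 with Y-linked signal as a block, where Cyp2a5 was -2.35 (adjusted p = 0.348). Only LR at 7 days and LR+SE at 3 days held arrays of both kinds, so the block is estimated from those groups alone. With the hepatocyte marker mean as a covariate the count was 0 as well, where Cyp2a5 was -4.75 (adjusted p = 0.0949). Over all clusters 123 were called in the main model, 5 with the block and 14 with the covariate.

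Resection with the spleen in place was compared with the same intact arrays at each time. At 24 h 10 genes were lower and 1 higher, where 4.12% of all clusters were lower and 3.47% higher. The median of the 22 hepatocyte markers was 0.32, 3 of them higher and 4 lower and the hepatocyte marker mean of these arrays (10.10 to 11.30) overlapped that of intact. The median of the 72 genes was -0.15. The fitted falls of Cyp2a5, Cyp2a4 and Cyp2b9 were 5.22 ± 0.74, 2.90 ± 0.65 and 2.77 ± 0.41. All 3 had LR means under background, and Cyp2a5 and Cyp2b9, under it on all 3 LR arrays, fell by at least 4.83 and 2.45. Cyp2e1 read 8.91, 7.02 and 7.62 against 11.11, 9.82 and 11.55 in intact and fell by 2.98 ± 0.74 (adjusted p = 0.0152). Cyp1a2 fell by 2.79 ± 0.57 (adjusted p = 0.00384) and Cyp2c50 by 2.01 ± 0.52. The other 4 that fell, Cyp3a16, Cyp2c37, Cyp2c54 and Cyp2c40, changed by -1.80 to -1.15, with bounds of at least 1.40 for Cyp3a16 and at least 0.10 for Cyp2c40. Of the 14 genes of 2c, which in mouse liver oxidise arachidonic acid and drugs, 4 fell in all.

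Against this, Cyp3a11, the main drug-oxidising P450 of adult mouse liver and a target of the pregnane X receptor, rose by 2.42 ± 0.63 (adjusted p = 0.0204), from 6.31, 5.25 and 5.14 to 8.38, 6.91 and 8.68. Cyp3a11 was thus higher and Cyp1a2 lower than intact on the same LR arrays. The intact arrays lacked Y-linked signal and the LR 24 h arrays had it, so in this contrast that difference and resection cannot be told apart. With the hepatocyte marker mean as a covariate, all 11 calls held and Cyp2b10 (-1.34) and Cyp2c39 (-2.26) were added. With Y-linked signal as a block 2 genes were called, of which only Cyp2e1, at -4.69 (adjusted p = 0.0184), was among the 11, while Cyp3a11 was 0.97 (adjusted p = 0.74) and Cyp1a2 -3.05 (adjusted p = 0.0851). The calls of Cyp2a5, Cyp2a4, Cyp2b9, Cyp3a16 and Cyp1a2 held without any 1 array. Cyp3a11 was lost without intact replicate 2 or 3 or LR replicate 1 or 3, Cyp2e1 without intact replicate 1 or 3 or LR replicate 2, Cyp2c50 and Cyp2c37 without intact replicate 3 or LR replicate 1 or 2, Cyp2c40 without intact replicate 3 or LR replicate 3, and Cyp2c54 without any but intact replicate 2. The count was 7 without intact replicate 3 or without LR replicate 2.

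At 3 days after LR 7 genes were lower and 0 higher, against 0.964% and 1.4% of all clusters, with a median of -0.17. Cyp2a5 (-4.64 ± 0.74), Cyp2a4 (-2.93 ± 0.65), Cyp2b9 (-2.09 ± 0.41) and Cyp3a16 (-1.77 ± 0.27) fell again, with Cyp2c40, Cyp2c54 and Cyp4b1. Cyp3a16 and Cyp2c40 were under background on all 3 LR arrays, which bounds their falls at 1.40 and 0.10 or more. Cyp2e1 and Cyp1a2 did not pass at this time, at -2.40 ± 0.74 (adjusted p = 0.107) and -0.97 ± 0.57 (adjusted p = 0.543). The count was 2 without LR 3 days replicate 2, 3 without intact replicate 3 and 4 without LR 3 days replicate 1. Cyp2a5 and Cyp3a16 held without any 1 array, and Cyp2b9 was lost without LR replicate 2. Cyp2a4 was lost without intact replicate 1 or 3 or LR replicate 1 or 2, Cyp4b1 without intact replicate 1 or 3 or LR replicate 2, Cyp2c40 without intact replicate 3 or any LR array and Cyp2c54 without any array but intact replicate 2. With Y-linked signal as a block 2 genes were called, neither among these 7, and with the hepatocyte mean as a covariate all 7 calls held.

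At 7 days after LR 6 genes were lower and 0 higher, against 0.612% and 0.387% of all clusters. They were the same 4 genes of 2a, 2b and 3a, Cyp2e1, which fell by 3.77 ± 0.74 to 7.75, 6.01 and 7.41 (adjusted p = 0.0162), and Cyp4b1. Cyp2b9 and Cyp3a16, under background on all 3 LR arrays, fell by at least 2.45 and 1.40. Hepatocyte markers were lower here, with a median of -2.00 and 6 of 22 called. Cyp2e1 was lost without intact replicate 1 or 3 and Cyp2a4 without these or LR replicate 1 or 3. The count was 10 without intact replicate 2, 3 with the hepatocyte mean as a covariate and 2 with Y-linked signal as a block, where Cyp2e1 was -4.92 (adjusted p = 0.0242) and Cyp2b9 -2.52 (adjusted p = 0.0468). All 4 comparisons with intact share its 3 arrays, so their falls in Cyp2a5, Cyp2a4, Cyp2b9 and Cyp3a16 are not separate observations. In each, the lack of Y-linked signal in intact goes along with the operation compared, though replicate 2 of LR at 7 days lacked it too.

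**Figure D3:**
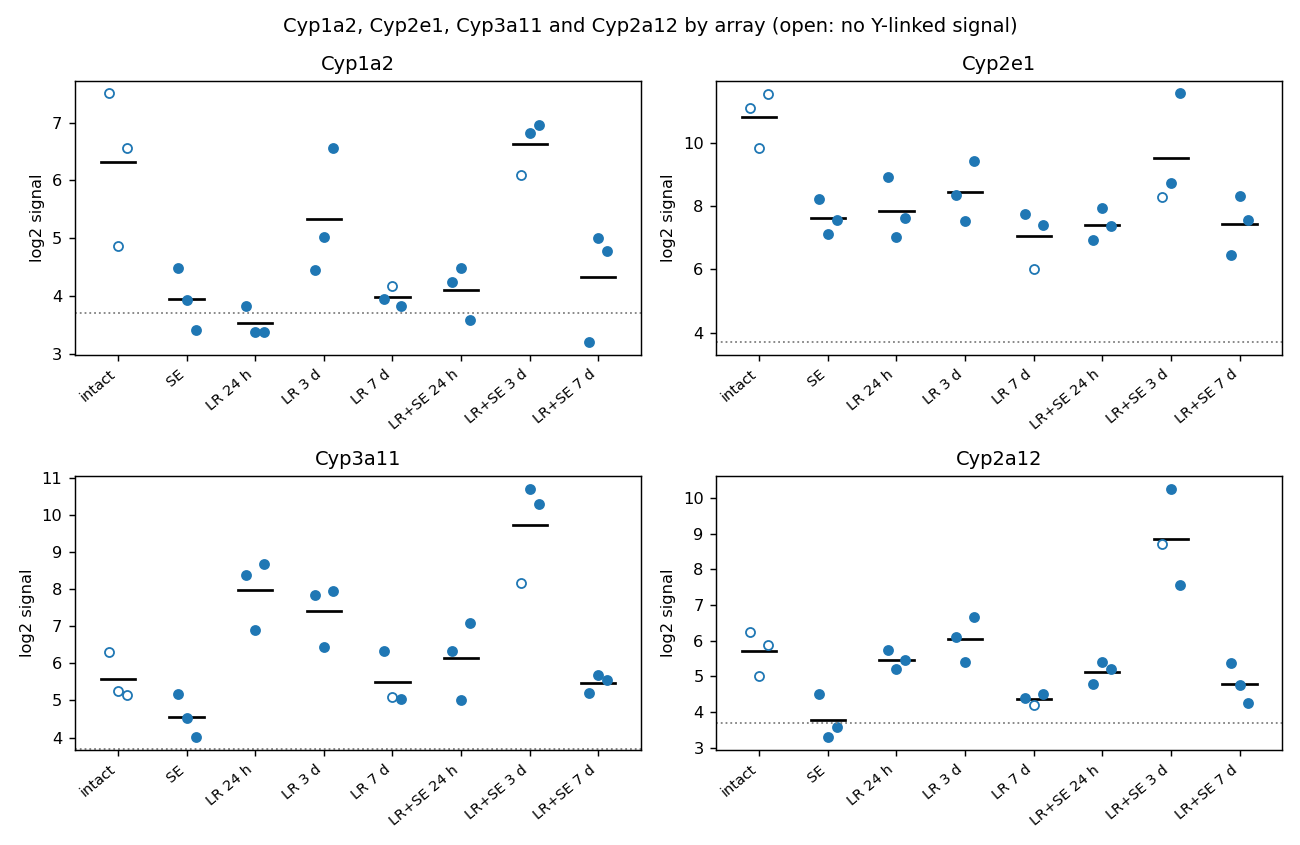
Log2 signal by group of Cyp1a2, Cyp2e1, Cyp3a11 and Cyp2a12 (points: arrays, open where the array lacked Y-linked signal; bars: group means; dotted line: background, 3.69). At LR 24 h Cyp1a2 and Cyp2e1 lie below and Cyp3a11 above the intact arrays. At LR+SE 3 days Cyp1a2, Cyp3a11 and Cyp2a12 lie above all SE arrays, as does Cyp2e1 by a narrow margin (lowest 8.28 against 8.24).

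Resection after splenectomy was compared with SE. At 24 h 1 gene was lower, Cyp2c65 (-1.0 ± 0.24, adjusted p = 0.0384), and 0 were higher, where 0.374% of all clusters were lower and 0.955% higher. Its LR+SE arrays were all under background, so the fall was at least 0.44. The call was lost without SE replicate 1 or 3, or any 1 of the LR+SE 24 h arrays. Cyp1a2 and Cyp2e1 differed from SE by only 0.16 ± 0.57 and -0.22 ± 0.74 at this time.

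At 3 days 15 of the 72 genes were higher and 1 lower, against 5.12% and 1.79% of all clusters. The median difference was 0.31 over the 72 genes and -0.04 over all clusters. With clusters at background left out of both it was 1.11 over 35 genes and 0.10 over the clusters. That filter uses a mean that includes the LR+SE 3 days arrays. A gene high there passes more easily, so the 1.11 is partly built in and is not read as a larger rise. Cyp2c39 rose by 5.70 ± 0.70 (adjusted p = 6.63e-05), from 3.95, 2.43 and 4.49 to 10.36, 9.09 and 8.53. Cyp3a11 rose by 5.15 ± 0.63, from 5.16, 4.53 and 4.0 to 8.17, 10.71 and 10.29. Cyp2a12, a steroid and bile acid 7α-hydroxylase, rose by 5.05 ± 0.50 (adjusted p = 9.91e-06), from 4.50, 3.28 and 3.56 to 8.71, 10.26 and 7.54. In each of these the groups were far apart, and replicate 2 was the highest LR+SE array for Cyp3a11 and Cyp2a12 but not for Cyp2c39.

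Cyp2d26 rose by 4.19 ± 0.69, from 6.98, 4.79 and 6.20 to 9.94, 11.75 and 8.86. Cyp2c70, which in mice makes muricholic acids from bile acids, rose by 3.60 ± 0.59, from 5.16, 4.95 and 6.31 to 7.74, 10.90 and 8.58. Cyp2j5, an arachidonic acid epoxygenase, rose by 3.25 ± 0.59, from 6.21, 4.16 and 4.71 to 8.16, 9.0 and 7.68. These 3 again kept all LR+SE arrays above all SE arrays. The other 9 genes rose by 0.73 to 3.07, among them Cyp3a25 (3.07 ± 0.49), Cyp1a2 (2.69 ± 0.57), Cyp4f16 (2.00 ± 0.41), Cyp3a44 (1.66 ± 0.39) and Cyp2d13 (1.39 ± 0.39). The gene that fell was Cyp2c65, by 0.98 ± 0.24, or at least 0.44 with its LR+SE arrays under background. Cyp2d9 rose by 2.57 ± 0.65 with overlap, since replicate 1 read 5.47 and SE replicate 3 read 5.71. Cyp4b1 was at -1.26 ± 0.54 (adjusted p = 0.192), and Cyp2e1 at 1.89 ± 0.74 did not pass (adjusted p = 0.146), although replicate 3 read 11.56. By subfamily 4 of 8 genes of 2d rose, 3 of 7 of 3a, 2 of 14 of 2c, 2 of 4 of 2a and 2 of 9 of 4f, and none of 2b or 4a.

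The rise came on the arrays with the highest hepatocyte signal. All 22 hepatocyte markers were called higher, with a median of 5.47, and none of their 22 levels was at background. With the hepatocyte marker mean as a covariate 0 of the 72 genes were called, and 5 of all clusters, beside 1536 of all clusters in the main model. With that covariate Cyp2a12 was 2.51 ± 0.77 (adjusted p = 0.457) and Cyp3a11 2.27 ± 1.05 (adjusted p = 0.677), with larger standard errors because that mean moves with the groups. With Y-linked signal as a block Cyp2a12 was 5.13 (adjusted p = 4.28e-05). The count was 12 without LR+SE replicate 2, 17 without replicate 1 and 14 without replicate 3. Cyp3a44 was lost without SE replicate 3 or LR+SE replicate 1, Cyp2d9 without SE replicate 1 or 2 or LR+SE replicate 2 or 3, Cyp2d22 without LR+SE replicate 2, Cyp2d13 without any array but LR+SE replicate 1, Cyp2c65 without SE replicate 1 and Cyp2a22 (0.73) without any 1 array. Both group means of Cyp2a22, 2.86 and 3.59, lay under background, so its difference has no bound. Cyp4f15, under background on all SE arrays, rose by at least 0.85. The other 10 calls held. Cyp2a22, Cyp2d22, Cyp3a44 and Cyp4f15 were named after their values were seen.

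**Figure D4:**
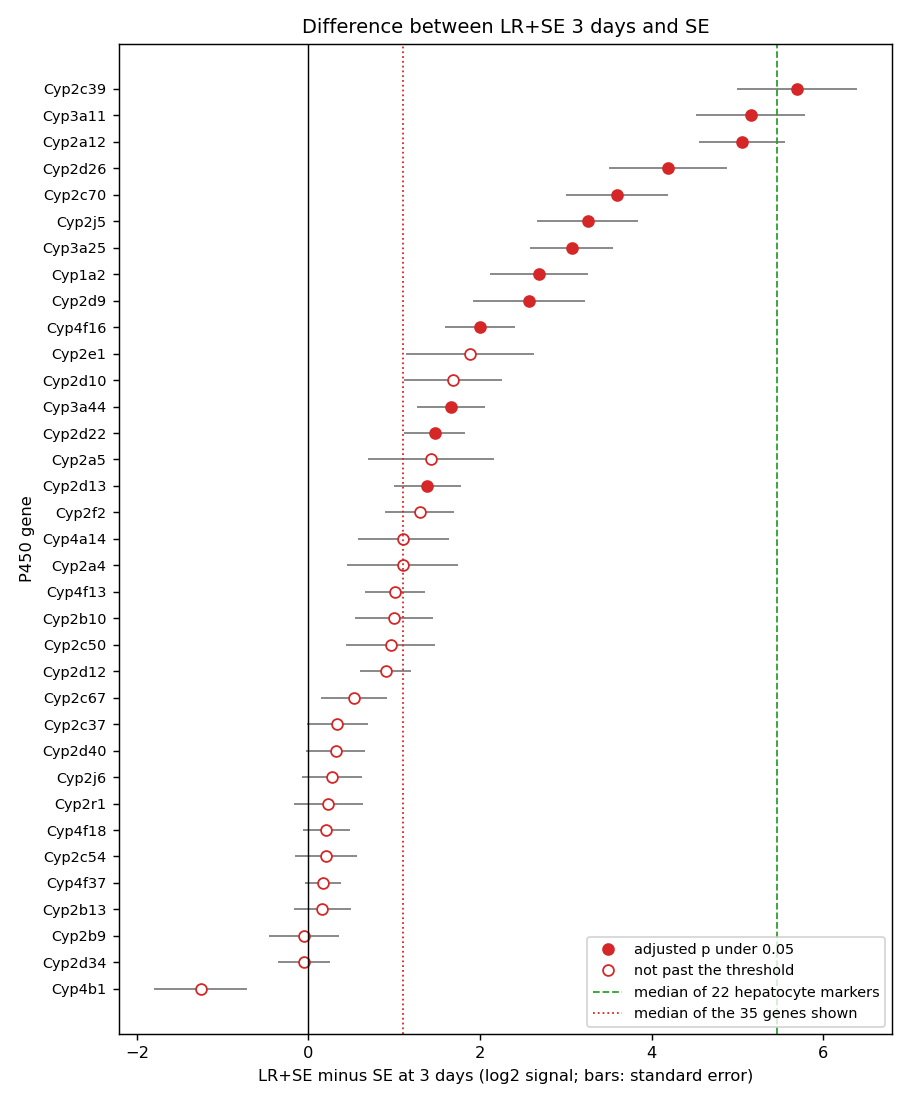
Difference between LR+SE at 3 days and SE in log2 signal for the 35 P450 genes above background (points, filled where called; bars: standard error), with the medians of these genes (1.11) and of 22 hepatocyte markers (5.47). Cyp2c39, Cyp3a11 and Cyp2a12 lie near the hepatocyte median and Cyp4b1 lies below 0. The genes shown passed a filter on a mean that includes the LR+SE 3 days arrays, which helps raise their median.

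At 7 days 0 of the 72 genes were called by limma in either direction, against 0.77% higher and 0.748% lower of all clusters, and the median was -0.09. At an unadjusted p under 0.05 there were 3, and 1 was called without SE replicate 2. Cyp3a11 was back to 5.20, 5.68 and 5.55 and Cyp2c39 to 3.33, 5.41 and 4.70. Both had lain above this on all 3 arrays at 3 days.

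The effect of earlier splenectomy was read from LR+SE against LR at the same time. At 24 h 1 gene was lower, Cyp4b1, and 0 were higher, against 1.22% and 2.04% of all clusters. At 3 days 1 was higher, Cyp2a12 (2.78 ± 0.50, adjusted p = 0.036), and 0 were lower, against 0.0991% and 0.027%. Its LR arrays read 6.11, 5.39 and 6.66. The call was lost without LR replicate 1 or 2 or LR+SE replicate 2, and the count was 5 without LR+SE replicate 1 or replicate 3. Differences of similar size did not pass in Cyp3a11 (2.32 ± 0.63, adjusted p = 0.176), Cyp2c39 (2.64 ± 0.70, adjusted p = 0.152) and Cyp2d26 (2.96 ± 0.69, adjusted p = 0.095). Hepatocyte markers had a median of 2.79 there, with 0 of 22 called by limma but 19 at an unadjusted p under 0.05, as were 19 of the 72 P450 genes. At 7 days 1 gene was higher, Cyp4b1, and 0 were lower, against 0.95% and 0.689%.

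The interaction takes the change from SE to LR+SE and subtracts the change from intact to LR. At 24 h 1 gene was positive and 1 negative, against 0.473% and 0.212% of all clusters. These were Cyp2a5 (4.62 ± 1.04) and Cyp2c65 (-1.60 ± 0.34). That of Cyp2a5 rests on its level in intact. For Cyp2c65 both arms contribute, with means of 4.13 in SE and 3.14 in LR+SE, and of 2.94 in intact and 3.54 in LR. At 3 days 6 genes were positive and 0 negative, against 0.468% and 0.045%: Cyp2c39 (6.33 ± 0.99, adjusted p = 0.00404), Cyp2a5 (6.07 ± 1.04), Cyp2a12 (4.71 ± 0.71), Cyp2j5 (4.29 ± 0.83), Cyp1a2 (3.66 ± 0.81) and Cyp3a16 (2.17 ± 0.39). At 3 days too, the interactions of Cyp2a5 and Cyp3a16 rest largely on intact. Cyp2a5 had means of 8.53 in intact, 3.88 in LR, 3.81 in SE and 5.24 in LR+SE. Those of Cyp3a16 were 5.09, 3.33, 3.30 and 3.70. For both genes the highest LR+SE array was replicate 1, which lacked Y-linked signal. At 7 days 1 was positive and 0 negative, against 0.0901% and 0.0315%, and it was Cyp4b1. With Y-linked signal as a block the counts were 0, 1 and 0, and the gene called at 3 days was not among these 6. Over all clusters the main model called 152, 114 and 27 and the model with the block 1, 6 and 8. With the block Cyp2a5 was 2.25 at 24 h and 2.92 at 3 days (adjusted p = 0.573 and 0.382). Of the 22 hepatocyte markers 14 were positive in the interaction at 3 days, with a median of 4.99. With their mean as a covariate 0 of all clusters were called at 3 days, so all 6 calls were lost. Cyp2c39 was then 3.29, Cyp2a12 2.09, Cyp1a2 1.29 and Cyp2j5 0.41, while Cyp2a5 was 6.15 and Cyp3a16 2.46. The count at 24 h was 0 without any 1 of intact replicate 1, SE replicates 2 and 3, LR replicates 1 and 2 or LR+SE replicate 2, and it was 1 without any other array but intact replicate 2, where it was 3. At 3 days it was 11 without LR+SE replicate 1 and 10 without intact replicate 2. Cyp2j5 and Cyp1a2 were lost without intact replicate 1 or 3, SE replicate 2 or 3, LR replicate 1 or 2 or LR+SE replicate 2, Cyp1a2 also without LR+SE replicate 3, and the other 4 held. At 7 days the count was 4 without intact replicate 2 or LR replicate 2.

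Cyp4b1, a family 4 enzyme of lung and other tissues that oxidises fatty acids and the furan 4-ipomeanol, had a course of its own. It read 11.97, 9.96 and 12.04 in intact, 10.88, 9.90 and 9.92 in SE and 10.72, 11.40 and 10.17 in LR at 24 h. It then read 9.14, 7.89 and 9.21 at 3 days and 8.02, 7.69 and 7.67 at 7 days after LR. After LR+SE it read 8.55, 8.34 and 8.20 at 24 h, 10.29, 8.30 and 8.34 at 3 days and 11.39, 11.55 and 10.66 at 7 days. The group means at 24 h, 3 days and 7 days were 10.77, 8.75 and 7.79 after LR and 8.36, 8.98 and 11.20 after LR+SE. Cyp4b1 was thus low at 3 days in both arms, though LR+SE replicate 1 read 10.29 there. It was also low at 24 h after resection without the spleen and at 7 days after resection with it.

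Against intact Cyp4b1 fell by 2.58 ± 0.54 at 3 days (adjusted p = 0.0119) and by 3.53 ± 0.54 at 7 days (adjusted p = 0.00298) after LR. Against LR it was lower in LR+SE by -2.40 ± 0.54 at 24 h (adjusted p = 0.0143) and higher by 3.41 ± 0.54 at 7 days (adjusted p = 0.00293), with no overlap at either time. The 24 h call was lost without LR replicate 2 or LR+SE replicate 2, and the 7 day call held without any 1 array. With the hepatocyte marker mean as a covariate these 2 differences were -2.21 (adjusted p = 0.037) and 3.26 (adjusted p = 0.00491), and the fall at 3 days after LR was -2.54 (adjusted p = 0.011). The fall at 7 days was no longer called, at -3.03 (adjusted p = 0.0569), nor was it with Y-linked signal as a block (-2.92, adjusted p = 0.0558), where the fall at 3 days was -1.66 (adjusted p = 0.404). The interaction at 7 days was 4.50 ± 0.77 (adjusted p = 0.016), and that call was lost without intact replicate 1 or 3, SE replicate 2 or 3, or LR+SE replicate 2. It was also lost with the hepatocyte covariate (3.78, adjusted p = 0.216) and with the Y-linked block (3.89, adjusted p = 0.156).

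The 10 sinusoidal endothelial markers, all above background, moved with Cyp4b1 at some times. They averaged 10.51 to 11.08 on the LR 7 days arrays and 13.48 to 14.30 on the LR+SE 7 days arrays. Of the 10, 7 were higher in LR+SE, where 0.95% of all clusters were, among them Kdr (3.79) and Oit3 (3.97). At 24 h they averaged 13.74 to 14.33 in LR and 12.35 to 12.93 in LR+SE, with Clec4g lower by -2.31 ± 0.47. At 3 days after LR they averaged 12.23 to 12.98, beside 11.73 to 13.34 in intact, so Cyp4b1 fell there while 0 of the 10 markers were called by limma (2 at an unadjusted p under 0.05). Their part in the level of Cyp4b1 was not tested.

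**Figure D5:**
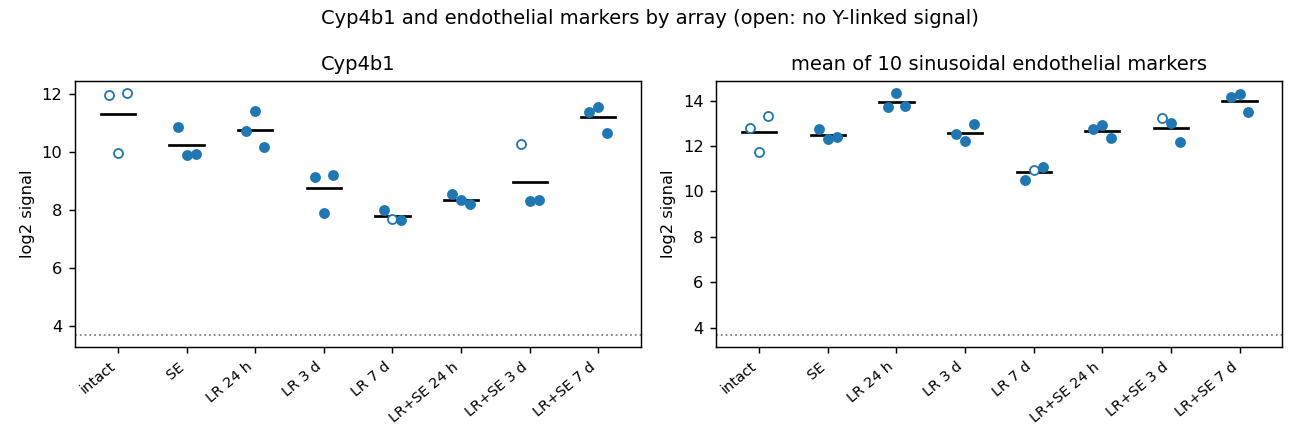
Log2 signal of Cyp4b1 and mean log2 signal of 10 sinusoidal endothelial markers by group (points: arrays, open where the array lacked Y-linked signal; bars: group means; dotted line: background, 3.69). Both are low in LR at 7 days and high in LR+SE at 7 days. Cyp4b1 is also low in LR+SE at 24 h and, except for LR+SE replicate 1, in LR and LR+SE at 3 days. The markers are not low in those groups.

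Genes that work with these enzymes were examined as well. Over all clusters, 5.12% were higher and 1.79% lower in LR+SE at 3 days against SE. At LR 24 h against intact 3.47% were higher and 4.12% lower. Calls of 1 or 2 genes in the short lists here are therefore not read as results about a list. Of 8 measured electron donors and heme supply genes 2 rose in LR+SE at 3 days against SE, cytochrome b5 (Cyb5a, 2.13 ± 0.49) and Pgrmc1 (1.91 ± 0.37), a heme-binding partner of P450 enzymes. At LR 24 h Alas1, the first enzyme of heme synthesis, fell by 1.73 ± 0.47. Of 14 measured regulators 1 fell at LR 24 h, Cebpa by 2.30 ± 0.57, and 2 rose in LR+SE at 3 days, the bile acid receptor Nr1h4 by 1.5 ± 0.34 and its target Nr0b2 by 0.69 ± 0.21. Nr1h4 had a mean of 2.76 in SE, under background, and 4.26 in LR+SE, so the size of its rise is uncertain. Of 20 measured conjugation and transport genes 13 rose in LR+SE at 3 days, with a median of 2.17, among them the glutathione transferases Gstm1 (3.83 ± 0.69) and Gstp1 (3.62 ± 0.61), the flavin monooxygenase Fmo5 (3.38 ± 0.53) and the glucuronosyltransferase Ugt2b34 (3.35 ± 0.46). At LR 24 h 3 of these 20 fell, the sulfotransferase Sult2a8 by 3.94 ± 0.56, the epoxide hydrolase Ephx1 by 3.19 ± 0.55 and Gsta3 by 2.74 ± 0.53. Of the P450 genes beyond family 4, 0 of 15 were called by limma in LR+SE at 3 days against SE (3 at an unadjusted p under 0.05), with a median of 0.16. At LR 24 h 3 of the 15 fell, Cyp27a1 by 3.19 ± 0.46, thromboxane synthase Tbxas1 by 2.46 ± 0.43 and prostacyclin synthase Ptgis by 1.13 ± 0.24, and 2 rose.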

How the data were processed

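Clariom S arrays of F4/80-selected liver cells were used, 24 in 8 groups of 3 taken from the labels. The authors deposited 1 log2 signal per array and cluster, made with the RMA method of the Transcriptome Analysis Console (no version is given in the sources used here). Raw scans were not used here, and neither were scan dates. Of 28846 entries, 6640 control probesets were left out. Exactly 1 symbol was given for 19572 of the 22206 clusters tested, and 2634 were unnamed, so a P450 gene among them is not described.

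Linear models were fitted to all clusters with limma 3.58.1 in R 4.3.3, with a mean for each group (degrees of freedom 16 residual and 4.23 prior) and Benjamini-Hochberg adjustment over all clusters of a comparison. A call is an adjusted p under 0.05. An exact permutation test of 3 arrays against 3 could not go below p = 0.1, and calls use the spread pooled over groups. Differences carry their standard error and means their SD after ±. Alternatives were quantile normalization once more, leaving out dim clusters, a variance trend, the replicate number, the Y-linked signal or the hepatocyte marker mean in the model, leaving out each array and a minimum difference of 1. The number of arrays limits the precision.

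The genes, lists and tests were chosen with earlier results of these data known. Named genes were the 4 highest means of a family, fixed genes of interest, the 6 largest called rises and falls of a comparison and up to 4 called genes of another list. Of the fixed genes Cyp2c29 and Cyp4v3 were not analysed here. Python 3.11.15 and matplotlib 3.10.9 made the plots.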

Additional observations from a re-analysis of the deposited data

Results flagged for a closer look

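The responses to resection with and without the spleen differed by the interaction test in 9 cases. At 24 h these were Cyp2a5 (4.62 on the log2 scale) and Cyp2c65 (-1.60). At 3 days they were Cyp2c39 (6.33), Cyp2a5 (6.07), Cyp2a12 (4.71), Cyp2j5 (4.29), Cyp1a2 (3.66) and Cyp3a16 (2.17). At 7 days it was Cyp4b1 (4.50). Each uses the intact arrays, which lack Y-linked signal, and in the model with that signal as a block none of the 9 was called. Only LR at 7 days and LR+SE at 3 days held arrays of both kinds, so the block is estimated from those groups alone. A call lost in that model is therefore not a test of the Y-linked signal. With the block Cyp2c39 was 5.05 (adjusted p = 0.163), and Cyp2a5 was 2.25 at 24 h (adjusted p = 0.573) and 2.92 at 3 days (adjusted p = 0.382).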

How the results depend on the processing

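With Y-linked signal as a block, the counts of called P450 genes became 0 for SE against intact, 2 for LR against intact at each of 24 h, 3 days and 7 days, 5 for LR+SE against LR at 3 days, and 0, 1 and 0 for the interactions at 24 h, 3 days and 7 days. The cause was not tested. With the hepatocyte marker mean as a covariate they became 0 for SE against intact, 3 for LR at 7 days, 0 for LR+SE against SE at 24 h and at 3 days, 0 for LR+SE against LR at 3 days, 1, 0 and 0 for the interactions and 11 for the F test, and Cyp2j5 (-0.51), Cyp2d9 (-0.91) and Cyp2d22 (-0.36) turned negative in LR+SE against SE at 3 days. With dim clusters left out they became 0 for LR+SE against SE at 24 h, 1 at 7 days, 2 for LR+SE against LR at 3 days, and 1 and 3 for the interactions at 24 h and 7 days. With a variance trend they became 4 for LR+SE against LR at 3 days and 12 and 2 for the interactions at 3 and 7 days. A minimum difference of 1 left 0 for LR+SE against SE at 24 h. Calls over all clusters moved too. For LR against intact at 24 h, 3 days and 7 days the Y-linked block took them from 1685, 524 and 222 to 302, 275 and 45. For LR+SE against LR at 3 days they went from 28 to 51 with the block and to 0 with the hepatocyte covariate.

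With 1 array left out, counts ranged over 4 to 8 for SE against intact, 7 to 10, 2 to 7 and 4 to 10 for LR at 24 h, 3 days and 7 days, 0 to 1, 12 to 17 and 0 to 1 for LR+SE against SE, 0 to 1, 0 to 5 and 1 to 1 for LR+SE against LR, 0 to 3, 4 to 11 and 0 to 4 for the interactions and 20 to 26 for the F test. Of 60 calls 59 held with a variance trend, 58 with quantile normalization once more and 57 with the replicate block. Far fewer held with the Y-linked block, 22, or with the hepatocyte covariate, 24, where 3 also changed sign. Over the checks of each call with 1 array left out, the call held in 286 and was lost in 128. The replicate numbers do not pair the arrays: deviations of same-numbered arrays correlated with a median of -0.01 over 84 pairs. The number above background was 26 to 51 under the other definitions.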
